A study of Homo sapiens with 18 samples.

Results

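LNCaP cells, an androgen-responsive human prostate cancer line, were kept for 48 h in medium conditioned by M1-polarised THP-1 macrophages, either alone or with the solvent DMSO. The 3 libraries of M1 medium with DMSO were compared with the 3 libraries of M1 medium alone, which are 6 of the 18 libraries of the series. THP-1 is a monocytic leukaemia line, and only its medium, not the macrophages, was given to the LNCaP cells. All groups were first held in RPMI with 1% heat-inactivated serum, and conditioned medium was then diluted 1:4 in RPMI with 10% heat-inactivated serum. A further 3 libraries received this RPMI without conditioned medium (control), and 3 received M1 medium with IKK16 at 0.7 μmol/l, an inhibitor of the IκB kinases that release NF-kB to the nucleus. Medium of M0 or M2 macrophages (3 libraries each) is not compared here. Those libraries entered the steps that use all 18 libraries, such as the filter, the scaling and the estimate of the spread. The amount of DMSO is described only as equal to that given with the inhibitor. DMSO in medium without macrophage products was not among the groups, so what follows is the difference between M1 medium with and without DMSO. An effect of DMSO and a difference in culture or library preparation between these groups cannot be told apart. The labels number the replicates without saying whether they were separate cultures, so p-values speak only for how far these samples scatter, and that scatter may be technical.

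M1 macrophages are the inflammatory kind: they release cytokines such as TNF and interleukin-1, which act on epithelial cells largely through NF-kB, and they are tied to interferon signalling, which acts through JAK kinases and STAT factors. In prostate cells these signals are known to switch on chemokines, acute-phase proteins, guanylate-binding proteins and antigen presentation. DMSO carries poorly soluble compounds such as kinase inhibitors into culture medium, and it is not biologically inert at every dose. The DMSO group is the usual reference for the inhibitor group, so the distance between it and plain M1 medium says how much of the M1 response the solvent group retained.

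The defining genes of LNCaP cells were present in all libraries. Summed over 12 luminal prostate markers, the level was 9722 to 9955 CPM in control, 4309 to 4420 in M1 medium and 4431 to 4490 with DMSO (CPM, a gene's count relative to the library total, scaled between libraries with edgeR's TMM method). Of 22 macrophage and monocyte markers, 10 passed the filter on low counts, 6 had no count in any M1 library and 5 none in any DMSO library. Their sum was 230.7 to 235.3 CPM in control, 268 to 295.3 in M1 medium and 259 to 277.2 with DMSO, most of it CSF1R. Of the 10 that passed, M1 medium against control was called higher for 7 and lower for 3, with a median log2 fold change of 3.91. Counts summed over the control, M1 and DMSO libraries were 14, 1825 and 1586 for ITGAM and 8, 1748 and 1260 for S100A9. For CSF1R they were 20347, 17894 and 16076. Where these counts came from was not tested. PTPRC, TYROBP, CYBB and FCGR3A were at 0 counts in all 6 libraries of M1 medium with and without DMSO. CD68, a lysosomal protein that many cell types make, fell from 34.9, 40.3 and 35.3 to 31.1, 30.5 and 30.4 CPM (log2 fold change -0.27 ± 0.075 SE, edgeR adjusted p = 0.0472). That call was lost when any library but M1 replicate 3 was left out, with an adjusted p of up to 0.299. The 6 libraries held 24201864 to 33813552.5 gene counts, and all pairs of replicates within a group differed by more than sampling noise (chi-square per gene 2.64 to 11.69, Pearson correlation of log2 CPM 0.9922 to 0.994).

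With DMSO, 378 of 17034 genes tested were higher (2.22%) and 346 lower (2.03%) than in M1 medium alone, 724 in all (4.25%). A gene is called here when its edgeR quasi-likelihood p, adjusted over all genes tested by the Benjamini-Hochberg method, is under 0.05, and 3643 genes had an unadjusted p under 0.05. The differences were small: the median size among the genes called was 0.29 on the log2 scale, and 4 genes rose and 5 fell by at least 2-fold. Against control, M1 medium alone changed 11041 genes (64.8%) and M1 medium with DMSO 10593 (62.2%). The number of calls rested on single libraries. Without M1 replicate 2 there were 27 higher and 44 lower, without M1 replicate 1 there were 76 and 97, and without M1 replicate 3 there were 862 and 625. Without DMSO replicates 1, 2 and 3 in turn the counts were 44 and 68, 96 and 85, and 152 and 136.

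The direction of the solvent difference followed the base composition of the transcript. Across 15054 genes with a known transcript sequence the log2 fold change rose with the share of G and C bases (Spearman's rho 0.481, across genes, which are not independent replicates), while rho was -0.05 for M1 medium against control. In the 1506 genes lowest in GC (25 to 39.4%) the median log2 fold change was -0.12, with 1 gene higher and 92 lower. In the 1506 highest (62.7 to 85.5%) the median was 0.17, with 155 higher and 4 lower. Genes higher with DMSO had a median GC content of 61.5%, genes lower 42.3% and all others 50.1%. Measured library by library, as the deviation of GC-rich minus GC-poor genes from their means over all 18 libraries, the 3 DMSO libraries stood at 0.244, 0.158 and 0.186 on the log2 scale. M1 replicates 1, 2 and 3 stood at -0.142, -0.211 and 0.052, and single libraries of the control ranged from -0.156 to 0.225. The inhibitor libraries, given an equal amount of DMSO, stood at -0.197, -0.068 and 0.107. All 3 DMSO libraries thus stood above all 3 M1 libraries and all 3 inhibitor libraries. The 3 control libraries, which received the same medium, also differed among themselves. When the smooth GC trend of each library was removed before the test, 175 genes were called higher (1.03%) and 186 lower (1.09%). Of the 378 genes higher as fitted, 123 (32.5%) were among those 175, and of the 346 lower, 159 (46%) were among those 186. Genes without a known transcript sequence received no correction, among them C1R, CDC45, INSIG1, MYC, RHOU and TALAM1 below. What the trend came from was not tested, and the counts below are given without it where that changes them.

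**Figure D1:**
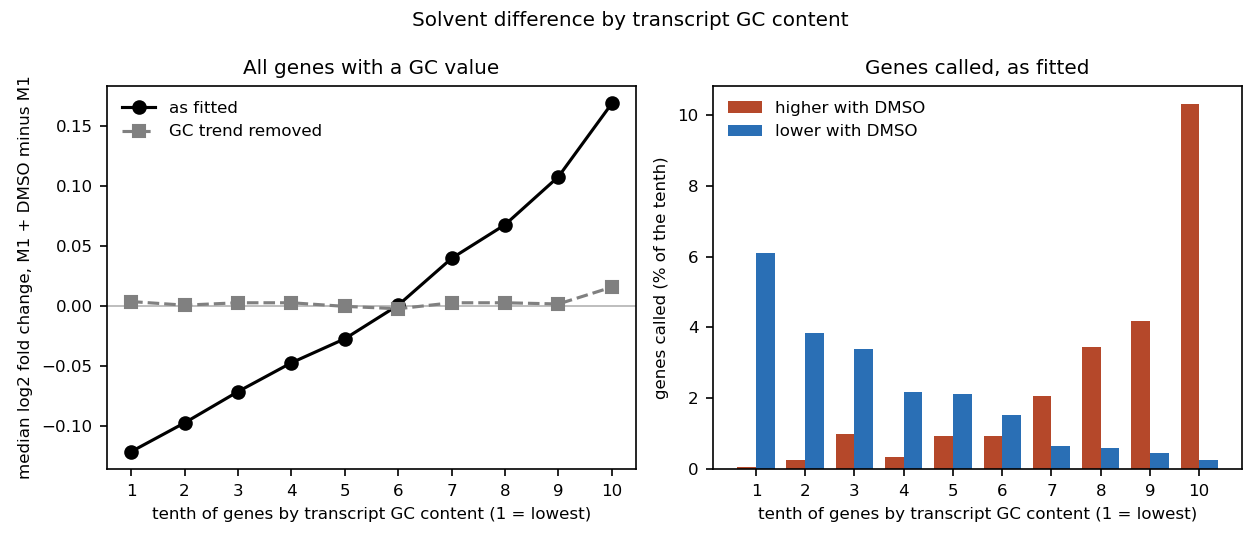
Left, median log2 fold change (M1 with DMSO minus M1) in 10 equal groups of genes ordered by transcript GC content (x axis, 1 = lowest), as fitted (black) and with the GC trend removed (grey). Right, share of each group called higher (red) or lower (blue), as fitted. The black line climbs from -0.12 to 0.17 and the grey line stays near 0, while 10.3% of the GC-richest group was called higher and 6.11% of the GC-poorest group lower.

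The M1 response was partly weaker with the solvent. On the first principal component of all genes tested, which held 78.3% of the variance, M1 libraries stood at 79.3 to 80.5, DMSO libraries at 71.6 to 73.2, inhibitor libraries at 42.8 to 44.1 and control libraries at -66.9 to -65.2, so the DMSO libraries lay on the control side of the M1 libraries without overlap. Because M1 medium against control shares the M1 libraries with the solvent comparison, genes were also sorted by the inhibitor libraries against control, which share no library with it. Of 1221 genes at least 2-fold higher there (adjusted p under 0.05), 103 were lower with DMSO (8.44%, against 2.03% of all genes) and 9 higher (0.737%, against 2.22%), and 70.8% had a log2 fold change below 0, with a median of -0.13. Of 727 genes at least 2-fold lower there, 39 were higher with DMSO (5.36%) and 4 lower, with a median of 0.09. Among the other 15086 genes 330 were higher (2.19%) and 239 lower (1.58%), with a median of -0.01. With the GC trend removed the same classes held 83 lower genes of 1221, 43 higher of 727, and 128 higher and 101 lower of 15086. Median GC content was alike in the classes, at 50.7%, 50.3% and 50%. The 103 genes became 48, 26, 35, 41 and 59 without M1 replicates 1 and 2 and DMSO replicates 1, 2 and 3, and the 39 became 20, 9, 14 and 20 without M1 replicates 1 and 2 and DMSO replicates 1 and 2.

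**Figure D2:**
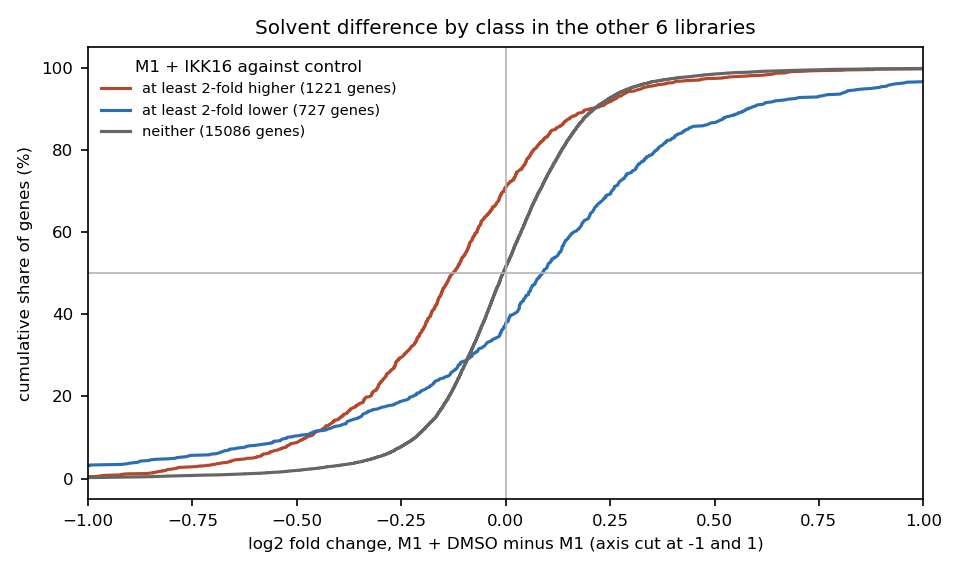
Cumulative share of genes (y axis, %) by log2 fold change of M1 with DMSO minus M1 (x axis, shown from -1 to 1), for genes at least 2-fold higher (red), at least 2-fold lower (blue) or neither (grey) in M1 medium with IKK16 against control. The red curve lies to the left of the grey one around its median of -0.13 and the blue curve to the right, around 0.09.

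Genes induced by interferon gamma held the largest share of lower genes among the 33 lists as fitted, and NF-kB effectors (8 of 21) with the GC trend removed. Of 25 tested, 9 were lower with DMSO and 0 higher (7 lower with the GC trend removed), and the median log2 fold change was -0.19 against -0.01 over all genes. The 9 are GBP1, GBP2, GBP3 and GBP4, guanylate-binding proteins that attack vacuoles holding intracellular pathogens, UBD, a ubiquitin-like modifier that sends proteins to the proteasome, APOL1 and APOL6, apolipoproteins, and C1R and C1S, the proteases that start the classical complement pathway. GBP3 and GBP4 were the members that lost their call with the GC trend removed (edgeR adjusted p = 0.169 and 0.0822). UBD (chromosome 6, 29555515 to 29559732, GRCh38.p14) stood at 104, 114 and 95.2 CPM in the M1 libraries and at 59.5, 61.0 and 74.2 with DMSO, against at most 0.0617 in control. The highest DMSO library lay well under the lowest M1 library, and the level with DMSO remained far above control. The log2 fold change was -0.68 ± 0.081 (edgeR adjusted p = 5.53e-05). GBP1 (chromosome 1, 89052319 to 89065208) stood at 34.4, 38.03 and 32.4 CPM in M1 medium and at 20.3, 19.0 and 21.4 with DMSO, a 1.73-fold difference (-0.79 ± 0.095, edgeR adjusted p = 6.25e-05). GBP2 fell from 205 to 214 CPM to 138 to 156 CPM (-0.54 ± 0.084, edgeR adjusted p = 0.00159). UBD, GBP1 and GBP2 kept their call under every setting tried, while the count for the list dropped to 5, 4, 3 and 5 without M1 replicates 1 and 2 and DMSO replicates 1 and 2. IDO1, the tryptophan-degrading enzyme, had a log2 fold change of -0.65 ± 0.187 that did not pass (edgeR adjusted p = 0.0549).

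Promoters of 3 genes of the inflammatory response that were lower under every setting are shown because they hold letters that match elements known to bind NF-kB or interferon-activated factors. Each is the 250 bases before the start of the gene, on the gene's strand, from RefSeq (GRCh38.p14), with matches in capitals: GBP1 at chr1:89065209-89065458 (minus strand), UBD at chr6:29559733-29559982 (minus strand) and CFB, complement factor B, at chr6:31945845-31946094 (plus strand).
GBP1: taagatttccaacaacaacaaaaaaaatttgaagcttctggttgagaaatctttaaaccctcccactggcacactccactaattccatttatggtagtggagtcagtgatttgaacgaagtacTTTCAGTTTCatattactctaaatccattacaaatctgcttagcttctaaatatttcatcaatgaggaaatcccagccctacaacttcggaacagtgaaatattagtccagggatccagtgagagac
UBD: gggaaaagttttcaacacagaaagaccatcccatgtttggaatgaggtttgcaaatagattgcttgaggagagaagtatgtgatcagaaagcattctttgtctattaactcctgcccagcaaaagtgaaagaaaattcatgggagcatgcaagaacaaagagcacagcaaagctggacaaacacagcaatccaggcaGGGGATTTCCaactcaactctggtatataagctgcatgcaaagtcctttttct
CFB: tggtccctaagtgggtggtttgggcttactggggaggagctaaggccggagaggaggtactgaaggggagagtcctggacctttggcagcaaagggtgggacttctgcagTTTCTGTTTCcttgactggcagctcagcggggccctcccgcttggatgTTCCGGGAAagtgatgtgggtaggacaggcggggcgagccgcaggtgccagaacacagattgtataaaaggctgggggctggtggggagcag
The search covered both strands for the kappaB element, the interferon-stimulated response element (GAAA, 2 bases of any kind, GAAA) and the gamma-activated site (TTCNNNGAA). GBP1 holds a response element whose first base lies 127 bases before the start, UBD a kappaB element at 53 bases, and CFB a response element at 140 and a gamma-activated site at 92. The promoters of SERPINA3 and SOD2, also lower under every setting, hold none of the 3 motifs in this window. Among 27305 RefSeq promoters of this length 5.05%, 3.07% and 6.78% hold the kappaB, response and gamma-activated motifs. Of the 264 genes lower with DMSO that have a promoter in the table, 8.71%, 4.17% and 9.47% hold them, against 6.32%, 1.05% and 5.26% of 285 genes higher and 5.67%, 2.41% and 5.62% of 13032 genes tested. Of the 17 genes lower under every setting that have a promoter there, 1, 3 and 2 hold them. Genes lower and higher with DMSO also differ in transcript GC content (medians of 42.3% and 61.5%). Whether the shares follow base composition was not tested. These shares are descriptions of letters in a window and say nothing of binding.

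NF-kB effector genes, products of the pathway that are secreted, at the cell surface or inside the cell, were lower in 6 of 21 members tested and higher in 0. The median log2 fold change was -0.17, with 20 of 21 members below 0. The 6 are SOD2, the mitochondrial superoxide dismutase, CFB, SAA1 and SAA2, acute-phase apolipoproteins, ICAM1, which binds leukocyte integrins, and CHI3L2, a chitinase-like secreted protein. With the GC trend removed there were 8, with LCN2, an iron-scavenging lipocalin, and LAMB3, a laminin chain, added. SOD2 stood at 2261, 2387 and 2230 CPM in M1 medium and at 1724, 1744 and 1843 with DMSO, while control libraries held 171 to 174.5 CPM. The groups did not overlap, and the difference was 1.29-fold (log2 fold change -0.37 ± 0.042, edgeR adjusted p = 5.53e-05). CFB (chromosome 6, 31946095 to 31952084) stood at 1010, 1017 and 946 CPM against 779, 773 and 828 (-0.32 ± 0.059, edgeR adjusted p = 0.00466). SAA1 went from 41.2 to 44.7 CPM to 27.6 to 33.2 (-0.52 ± 0.091, edgeR adjusted p = 0.0041). SAA1 and SAA2 are near-identical copies between which reads can be split, so their separate values are uncertain. The list count fell to 3 without M1 replicate 2.

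The regulators of the pathway were close to no change in the median. Of 19 NF-kB subunits and feedback inhibitors tested, all higher in M1 medium than in control, 3 were lower with DMSO and 0 higher (2 and 0 with the GC trend removed). The median log2 fold change was -0.02 (-0.065 with the GC trend removed). TNFAIP3, the ubiquitin-editing enzyme that shuts off TNF signalling, stood at 73.0, 76.6 and 74.7 CPM in M1 medium and 60.8, 57.7 and 63.1 with DMSO (-0.31 ± 0.071, edgeR adjusted p = 0.0196). BIRC3, an inhibitor of apoptosis in the TNF receptor complex, went from 336 to 380 CPM to 294 to 300 CPM (-0.26 ± 0.053, edgeR adjusted p = 0.00862), and its relative BIRC2 lost its call with the GC trend removed (edgeR adjusted p = 0.17). NFKB2 and RELB, subunits of the non-canonical branch, had log2 fold changes of 0.13 and 0.16 and were not called. The call of TNFAIP3 was lost without any of 4 libraries (M1 replicates 1 and 2, DMSO replicates 1 and 2), with an adjusted p of up to 0.125 in edgeR, and that of BIRC3 without M1 replicate 2 (0.0943) or DMSO replicate 1 (0.0544). Whether regulators and products differ in the share called was not tested.

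Among 11 chemokines tested, CCL8, a monocyte attractant, and CXCL8 were lower and 0 higher (CCL8 alone with the GC trend removed), and the list's median was -0.34 (-0.24 with the GC trend removed). CXCL8, the neutrophil attractant interleukin-8, stood at 14.6, 16.1 and 10.9 CPM in M1 medium and 9.34, 10.1 and 8.53 with DMSO, without overlap but with a wide spread in the M1 group (-0.56 ± 0.138, edgeR adjusted p = 0.0238). It was not called with the GC trend removed (edgeR adjusted p = 0.0962), and was lost without any one of 5 libraries, all but M1 replicate 3 (up to 0.206, without M1 replicate 2). CCL8 was lost without the same 5 (up to 0.174). CXCL10, an interferon-induced attractant of T cells, stood at 4.97, 7.16 and 3.66 against 3.87, 4.43 and 3.77 CPM, which overlap. Of 11 cytokines TNFSF10, the death ligand TRAIL, was lower (107 to 130 CPM against 86.9 to 94.3, edgeR adjusted p = 0.016), a call lost without 4 libraries, M1 replicates 1 and 2 and DMSO replicates 1 and 2 (up to 0.143). Type I interferon genes were mostly not called: of 36 tested, TRIM22, an antiviral ubiquitin ligase (-0.61 ± 0.106, edgeR adjusted p = 0.00334), and RIGI, a sensor of viral RNA, were lower and 0 higher, and the median was -0.07. RIGI was not called with the GC trend removed (edgeR adjusted p = 0.134).

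Acute-phase genes and genes of the JAK-STAT3 branch were lower in 6 of 21 members and higher in 0 (5 lower with the GC trend removed), with a median of -0.21. SERPINA3, an inhibitor of serine proteases that the acute phase induces (chromosome 14, 94612391 to 94624053), stood at 515, 583 and 501 CPM in M1 medium and 347, 344 and 387 with DMSO, against 0.726 to 1.67 in control. All DMSO libraries lay under all M1 libraries, by 1.48-fold on average (-0.57 ± 0.079, edgeR adjusted p = 0.000374). CP, the copper-carrying ferroxidase ceruloplasmin, here counted on a noncoding transcript, went from 144 to 161 CPM to 101 to 113 CPM (-0.52 ± 0.061, edgeR adjusted p = 5.53e-05). LBP, which presents bacterial lipopolysaccharide, the acute-phase protein ITIH4, the interleukin-6 co-receptor IL6ST and the repressor BCL6 were the other 4, and IL6ST lost its call with the GC trend removed. HP, haptoglobin, had the lowest value of the list at -1.10 and was not called. The list count was 3, 3, 2, 3 and 3 without M1 replicates 1 and 2 and DMSO replicates 1, 2 and 3.

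In antigen presentation few genes passed the test, although most values lay below 0. In the list of 24 MHC and peptide-loading genes, 22 log2 fold changes were below 0 (8889 of 17034 over all genes). The median was -0.14 (-0.18 with the GC trend removed), but B2M, the invariant light chain of class I, and HLA-DRA were the members called, both lower. B2M stood at 1516, 1723 and 1400 CPM in M1 medium and 1229, 1228 and 1257 with DMSO, and its call was lost with the GC trend removed (edgeR adjusted p = 0.0887), where HLA-B was called in its place. HLA genes resemble each other and can share reads. The call of B2M was also lost without M1 replicate 2 or DMSO replicate 1, and that of HLA-DRA without any library but M1 replicate 3 (up to 0.225). Of 28 p53 targets, CDKN1A, the p21 inhibitor of cyclin-dependent kinases, MDM2, PMAIP1 and RRM2B were lower and 0 higher. CDKN1A stood at 574, 586 and 595 CPM in M1 medium and 523, 482 and 532 with DMSO (-0.19 ± 0.051, edgeR adjusted p = 0.0341), and RRM2B lost its call with the GC trend removed. Among 28 NRF2 targets the aldo-keto reductases AKR1C1, AKR1C2 and AKR1C3, which act on steroids and reactive aldehydes, were lower and 0 higher. These near-identical genes can share reads. With the GC trend removed AKR1C2 was not called, and HMOX1, heme oxygenase, was among the members called lower. Of 21 genes in the list of mesenchymal and matrix genes, the integrin subunits ITGAV and ITGB6, which pair to activate latent TGF-beta, were lower. ITGAV stood at 732, 792 and 699 CPM in M1 medium and 568, 563 and 584 with DMSO (-0.37 ± 0.061, edgeR adjusted p = 0.00205), and ITGB6 at 5.57, 6.00 and 5.92 against 2.78, 2.63 and 3.54 (-0.97 ± 0.182, edgeR adjusted p = 0.0056). Both kept their call when any single library was left out.

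**Figure D3:**
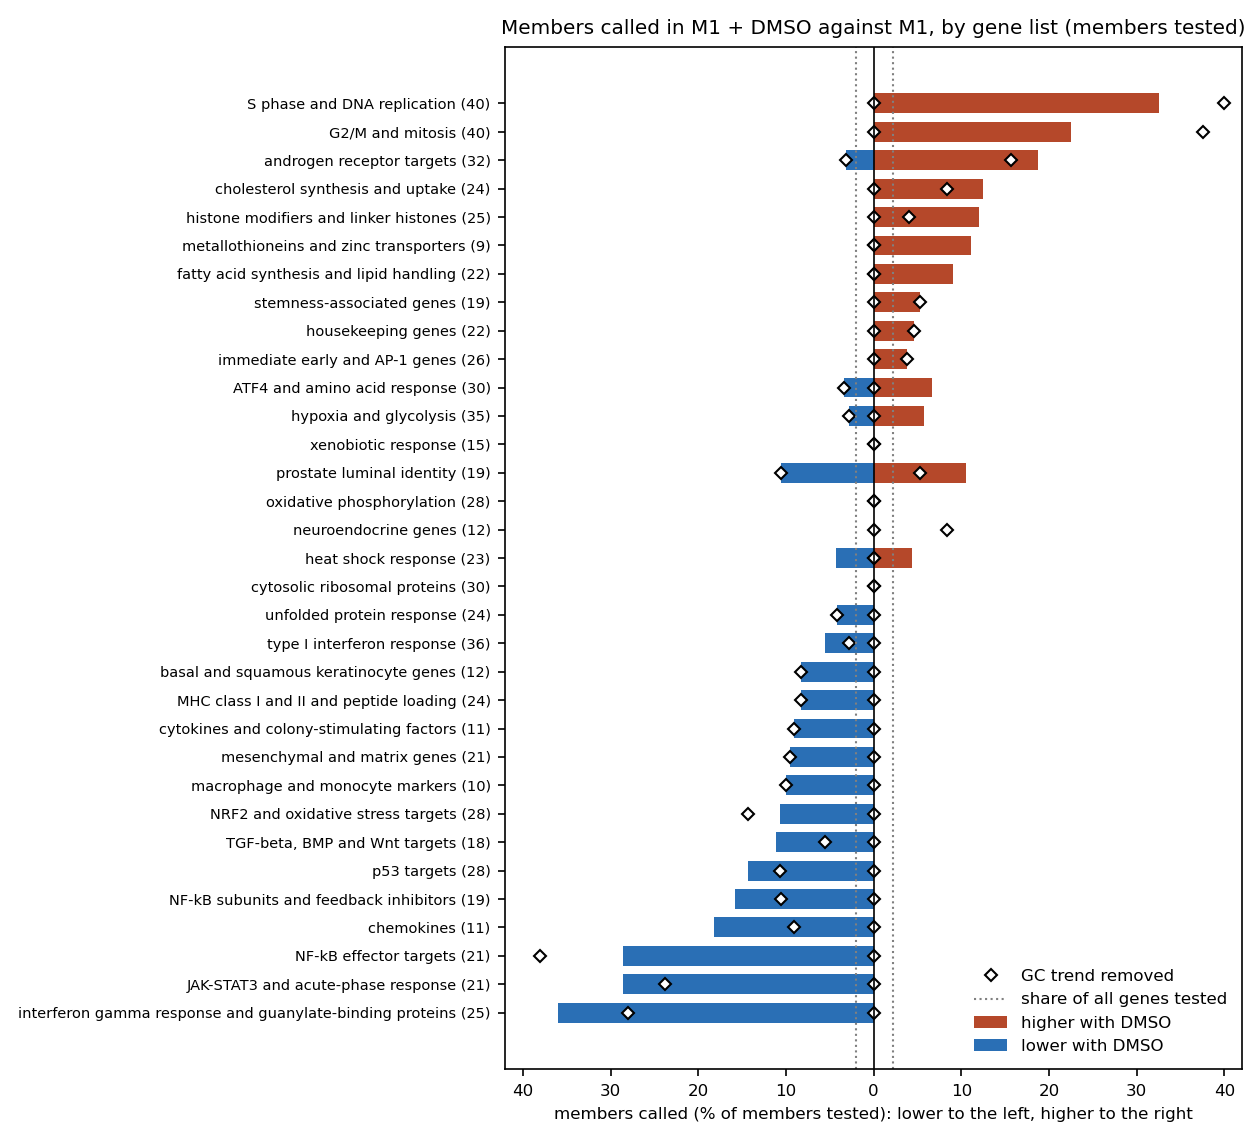
Share of the tested members of each gene list (number in brackets) called lower (blue, to the left) or higher (red, to the right) with DMSO, in percent. Open diamonds give the shares with the GC trend removed and dotted lines the shares over all genes tested, 2.03% lower and 2.22% higher. Interferon gamma, acute-phase and NF-kB effector genes stand at one end and S phase and G2/M genes at the other, on the same sides with the GC trend removed.

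A minority of the cell cycle genes, which M1 medium lowers, passed the test, all of them higher with the solvent. Of 40 S phase and DNA replication genes 13 were higher and 0 lower (16 and 0 with the GC trend removed), with a median log2 fold change of 0.18. Of 40 G2/M genes 9 were higher and 0 lower, with a median of 0.19 and 38 members above 0, and 15 were higher with the GC trend removed. M1 medium had lowered 39 and 40 of these genes. CDT1 (chromosome 16, 88803789 to 88809258), which licenses replication origins, stood at 24.8, 21.2 and 25.8 CPM in M1 medium and 34.3, 34.9 and 33.8 with DMSO, against 96.8 to 109 in control. The DMSO libraries were close together and above all M1 libraries, by 1.44-fold (0.52 ± 0.085, edgeR adjusted p = 0.00205). TYMS, thymidylate synthase, went from 61.2 to 67.2 CPM to 76.5 to 82.1 CPM (0.31 ± 0.051, edgeR adjusted p = 0.00205). PLK1, the mitotic polo-like kinase, stood at 21.9, 20.6 and 23.3 against 29.4, 30.3 and 26.8 CPM (0.40 ± 0.066, edgeR adjusted p = 0.00243). FOXM1, the transcription factor that drives G2/M genes, went from 31.8 to 36.9 CPM to 42.6 to 44.3 CPM (0.35 ± 0.063, edgeR adjusted p = 0.00427). The other 11 S phase genes called are the helicase subunits MCM2, MCM4, MCM5, MCM6 and MCM7, their partner CDC45, the origin protein ORC1, the nucleotide enzymes RRM2 and TK1, the nuclease FEN1 and the transcription factor E2F1. Beside PLK1 and FOXM1 the G2/M genes called are CCNA2, BUB1B, KIF2C, NUSAP1, PRC1, UBE2C and ANLN. MKI67, the common marker of proliferation, looked up after the values were seen, had a log2 fold change of 0.38 ± 0.184 and was not called (edgeR adjusted p = 0.237). The S phase count was 3, 4, 7 and 8 without M1 replicate 2 and DMSO replicates 1, 2 and 3, and the G2/M count 3, 3, 5, 3 and 2 without M1 replicates 1, 2 and 3 and DMSO replicates 1 and 2. With the GC trend removed the 15 G2/M genes became 8, 6, 6 and 6 without M1 replicates 1 and 2 and DMSO replicates 1 and 2. In bulk RNA a larger share of dividing cells and more of these RNAs per dividing cell cannot be told apart.

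Androgen receptor targets, which carry the secretory identity of luminal prostate cells and which M1 medium lowers strongly, were higher in 6 of 32 members (5 with the GC trend removed) and lower in 1, with a median of 0.05. The 6 include the kallikreins KLK3, which encodes prostate-specific antigen, and KLK4, the transporter SLC45A3, prostatic acid phosphatase ACP3 and the transcription factor SPDEF, and RHOU, which M1 medium raised, was the one that fell. KLK4 and SPDEF lost their call with the GC trend removed and PLPP1, a lipid phosphatase, gained one. SLC45A3 (chromosome 1, 205657851 to 205680509) stood at 49.6, 45.1 and 51.6 CPM in M1 medium and 60.3, 62.7 and 65.0 with DMSO, against 410.2 to 423 in control. That is 1.29-fold higher, without overlap (0.36 ± 0.055, edgeR adjusted p = 0.0011). KLK3 stood at 155, 147 and 161 against 187, 185 and 214 CPM (0.34 ± 0.065, edgeR adjusted p = 0.00587), far under the 3500 to 3954 CPM of control, and lost its call by a small margin without M1 replicate 2 (0.0556). KLK2 and TMPRSS2, 2 further androgen targets, had values of 0.22 and 0.09 and were not called. Of 19 luminal identity genes 2 were higher and 2 lower. HOXB13, the prostate homeobox factor, was higher (267, 240.4 and 271 CPM against 328, 309 and 318, edgeR adjusted p = 0.00334), while CD24, a surface glycoprotein that M1 medium raised, was lower (-0.38 ± 0.078, edgeR adjusted p = 0.00925). The others were GATA2, higher but not with the GC trend removed, and ELF3, an epithelial factor of the ETS family, lower. ELF3 lost its call without any one of the 6 libraries (edgeR adjusted p 0.0705 to 0.196), and GATA2 (up to 0.276) and RHOU (up to 0.208) without any but M1 replicate 3. CD24 was not called without M1 replicate 2 (0.0943), DMSO replicate 1 or DMSO replicate 2. The count of androgen targets fell to 1 without M1 replicate 2 and to 3 without DMSO replicate 1.

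**Figure D4:**
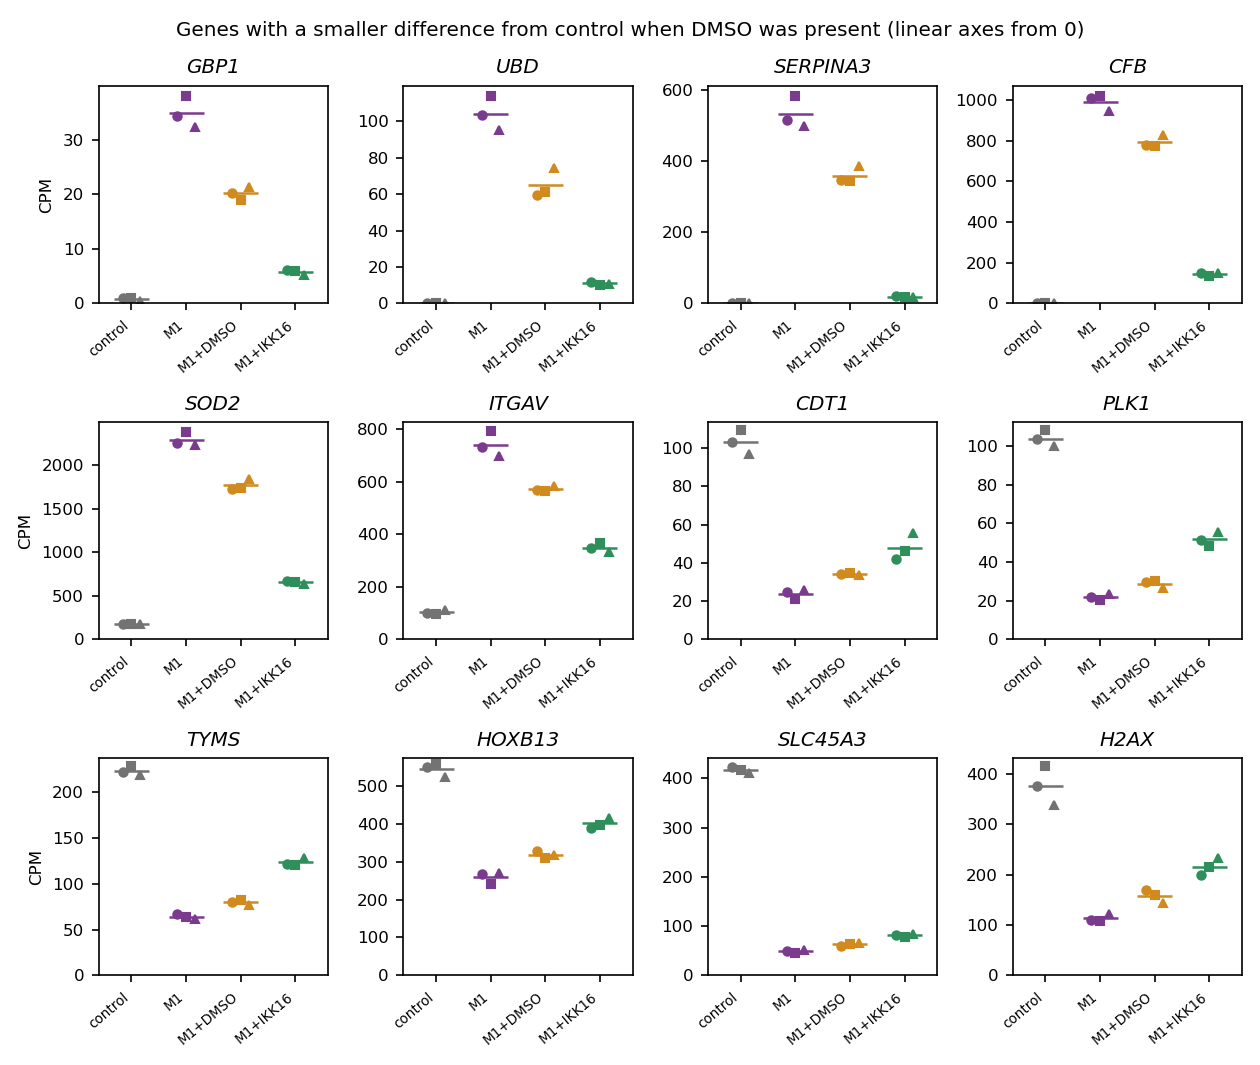
CPM (linear y axes from 0) in the 3 libraries each of control, M1, M1 with DMSO and M1 with IKK16 for 12 genes (circle, square and triangle for replicates 1, 2 and 3, bars for means). In GBP1, UBD, SERPINA3, CFB, SOD2 and ITGAV the DMSO libraries lie below the M1 libraries and in CDT1, PLK1, TYMS, HOXB13, SLC45A3 and H2AX above them, in each gene on the control side.

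Stress, metabolic and housekeeping lists ranged from no call to 3 members called, with all-gene shares of 2.22% higher and 2.03% lower as the background. Of 15 xenobiotic-response genes tested, which cells use to sense and break down foreign compounds, 0 were called in either direction, and 0 with the GC trend removed (over all genes 378 and 346 were called, and 3643 genes had an unadjusted p under 0.05). POR, the electron donor of cytochromes P450 and one of their 2 most abundant members, stood at 136, 134 and 141 CPM in M1 medium and 150, 138 and 147 with DMSO, which overlap. Of 23 heat shock genes HSF1 was higher and DNAJB4 lower, and neither was called with the GC trend removed. Of 24 unfolded protein response genes DNAJB9 was lower (-0.34 ± 0.072, edgeR adjusted p = 0.0114, lost without M1 replicates 1 or 2 or DMSO replicates 1 or 3, at up to 0.131). Cytosolic ribosomal proteins (30) and oxidative phosphorylation genes (28) had 0 called, with medians of 0.03 and -0.02. Of 24 cholesterol genes the synthesis enzymes TM7SF2 and DHCR7 and the sterol sensor INSIG1 were higher and 0 lower. TM7SF2 kept its call with the GC trend removed and DHCR7 did not. INSIG1 was called there too, but it received no GC correction, so that call does not bear on the trend. The cholesterol calls rested on single libraries too: without M1 replicate 2 the adjusted p was 0.0665 for TM7SF2, 0.114 for DHCR7 and 0.225 for INSIG1. Of 22 fatty acid genes FADS2 and SREBF1 were higher, neither of them with the GC trend removed. Of 9 metallothionein and zinc transporter genes MT2A was higher (28.6 to 36.2 CPM in the means), and it too lost its call with the GC trend removed (edgeR adjusted p = 0.264). Amino acid response (GDF15 and PHGDH higher, ATF3 lower, of 30), hypoxia and glycolysis (PFKFB4 and SLC2A1 higher, CA12 lower, of 35) and chromatin modifiers with linker histones (H2AX, the DNA methyltransferase DNMT1 and H1-10 higher, of 25) kept ATF3, CA12 and H2AX with the GC trend removed. Without M1 replicate 2 the call of ATF3 was lost (0.0556), and that of CA12 without any library but M1 replicate 3 (up to 0.128). The lists of basal keratinocyte genes (SERPINB7 lower, of 12), immediate early genes (DUSP4 higher, of 26), TGF-beta and Wnt targets (CCN1 and ID2 lower, of 18) and housekeeping genes (EEF2 higher, of 22) held 1 or 2 calls each, and neuroendocrine genes 0 of 12. ID2 was not called with the GC trend removed (edgeR adjusted p = 0.124) and SYT4, a synaptotagmin of the neuroendocrine list, was then called higher.

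A core of 44 genes was called in the same direction under all 23 settings tried, including each library left out, the GC trend removed and both together. The 30 lower genes include, beside those above, TCIM, a positive regulator of Wnt signalling, GLUL, glutamine synthetase, GK, glycerol kinase, ERRFI1, a feedback inhibitor of the EGF receptor, the cytochrome P450 CYP2C18, CLU, a secreted chaperone, IGFBP3, which binds insulin-like growth factors, and CASP8, the initiator caspase of death receptors. TCIM stood at 142, 158 and 132 CPM in M1 medium and 84.4, 84.8 and 89.6 with DMSO (-0.74 ± 0.086, edgeR adjusted p = 5.53e-05). The 14 higher genes are HOXB13, TYMS, DDC, SLC45A3, CKB, PLK1, TCF19, SPC24, ASF1B, MYBL2, EEFSEC, H2AX, CDT1 and MESP1. H2AX, the histone variant marked at DNA breaks, stood at 109, 108 and 122 CPM in M1 medium and 170.3, 160 and 145 with DMSO (0.48 ± 0.076, edgeR adjusted p = 0.00165). CKB, brain-type creatine kinase, stood at 596, 569.5 and 663 against 821, 774 and 799.7 CPM (0.39 ± 0.068, edgeR adjusted p = 0.00334). The nuclear long noncoding RNAs NEAT1 and MALAT1 were in the lower set as well. NEAT1 stood at 261, 322 and 264 CPM in M1 medium and 185, 186 and 186 with DMSO (-0.61 ± 0.070, edgeR adjusted p = 5.53e-05). MALAT1 and its antisense TALAM1 overlap and had near-equal values, and without a statement on strand their reads cannot be told apart. The genes of this core that stand in no list were named after their values were seen. In all of the 44 but DDC and CNN2 the mean with DMSO lay between those of control and M1 medium.

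Most but not all of the solvent calls lay inside the span of the M1 response. Of the 378 genes higher with DMSO, 276 had a mean between the control and M1 means and 102 above both, and of the 346 lower, 279 lay between and 67 below both. M1 medium against control was called lower for 306 of the 378 (31.9% over all genes tested) and higher for 304 of the 346 (32.9% over all genes tested). The share of all genes tested with a DMSO mean between those of control and M1 medium is not given here. These positions and calls share the M1 libraries with the solvent comparison and are given as a description. The genes outside the span were further apart in GC content than those within it: a median of 63.2% for the 102 and 40.4% for the 67, against 60.2% and 42.9% for the genes in between. With the GC trend removed, 11 of the 102 and 16 of the 67 were still called in the same direction. Of the 169 together, 90 also differed from control in the direction of the solvent change, and 15 of these were among the 27 called with the GC trend removed.

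DDC and CNN2 were the genes with a mean outside the span that held their call against M1 medium under all 23 settings. DDC (chromosome 7, 50458442 to 50565405), the decarboxylase that makes dopamine and serotonin and binds the androgen receptor, stood at 79.0, 76.4 and 80.3 CPM in M1 medium and 100.5, 96.0 and 103 with DMSO, against 87.3, 94.3 and 96.3 in control and 179 to 186 with the inhibitor. Every DMSO library lay above every M1 library, and 2 of the 3 lay above all control libraries (0.34 ± 0.055, edgeR adjusted p = 0.00181). Against control the difference did not pass (0.11 ± 0.055, edgeR adjusted p = 0.0919). CNN2 (chromosome 19, 1026608 to 1039065), the actin-binding calponin 2, stood at 51.1, 48.9 and 45.0 CPM in M1 medium and 36.2, 36.8 and 39.4 with DMSO, against 38.9 to 42.1 in control and 26.1 to 29.4 with the inhibitor. Its groups with and without DMSO did not overlap, while the DMSO and control values did (-0.37 ± 0.063, edgeR adjusted p = 0.00291). Here too the difference from control did not pass (-0.11 ± 0.063, edgeR adjusted p = 0.146).

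Among the 8 genes with the largest rise outside the span, PLCG2 and WNT10B kept their call with the GC trend removed. PLCG2 (chromosome 16, 81739041 to 81962685), a phospholipase C of receptor signalling, stood at 0.696, 1.60 and 1.01 CPM in M1 medium and 2.36, 1.82 and 2.50 with DMSO, 2.01-fold higher in the fit (1.01 ± 0.250, edgeR adjusted p = 0.026). These are low levels with a wide spread in M1 medium, and the call was lost without M1 replicate 1 (0.146), DMSO replicate 1 (0.103) or DMSO replicate 3 (0.0994). Control libraries stood at 1.19 to 1.88 CPM and inhibitor libraries, given an equal amount of DMSO, at 1.96 to 2.70. The DMSO libraries were called higher than control by a small margin (0.555, edgeR adjusted p = 0.0474), although these groups overlapped. WNT10B, a secreted Wnt ligand, stood at 11.6, 10.9 and 11.96 CPM in M1 medium, 16.4, 15.4 and 14.2 with DMSO, 12.3 to 14.3 in control and 17.4 to 18.5 with the inhibitor. Its DMSO libraries overlapped with control, although they were called higher than control (0.206, edgeR adjusted p = 0.0406). That they lay above all M1 libraries was a condition for choosing these 8 genes. The difference from M1 medium was 0.42 ± 0.086 (edgeR adjusted p = 0.0101), and the call was lost without M1 replicate 2 (0.0753) or DMSO replicate 1 (0.0688). The other 6, IL17C, FJX1, SUSD2, FZD9, SOX8 and OBSL1, had transcripts of 63.4 to 68.4% GC, and none of them was called with the GC trend removed (edgeR adjusted p 0.0839 to 0.34). SUSD2, a membrane protein with a sushi domain, stood at 7.15, 7.06 and 7.26 CPM with DMSO against 3.92 to 5.18 in M1 medium and 2.53 to 3.67 in control.

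Among the 8 with the largest fall outside the span, NME4, COL7A1, YJEFN3 and CCN1 kept their call with the GC trend removed. CCN1 (chromosome 1, 85580761 to 85583950), a matricellular protein induced by YAP and growth factors, stood at 7.72, 8.31 and 6.73 CPM in M1 medium and 5.68, 5.15 and 4.84 with DMSO, against 9.69 to 11.3 in control and 5.24 to 6.70 with the inhibitor. It was lower in M1 medium than in control (-0.45, edgeR adjusted p = 0.000381) and lower still with DMSO (-0.54 ± 0.108 against M1 medium, edgeR adjusted p = 0.0085). With DMSO this gene thus stood further from control (-0.99, edgeR adjusted p = 2.15e-08), and the call against M1 medium was lost without M1 replicate 2 (0.0748). COL7A1, the collagen of anchoring fibrils, stood at 3.55, 4.22 and 3.17 CPM in M1 medium and 2.36, 2.12 and 1.77 with DMSO, against 3.56 to 4.94 in control. Its transcript is GC-rich at 64.8%, so it fell against the trend, and its log2 fold change of -0.81 ± 0.203 (edgeR adjusted p = 0.0277) became -0.96 with the trend removed. NME4, a mitochondrial nucleoside diphosphate kinase, stood near 1 CPM (1.49, 1.29 and 1.11 against 0.884, 0.509 and 0.538, edgeR adjusted p = 0.0293), and YJEFN3 at 6.71, 10.5 and 6.90 against 5.59, 4.82 and 5.15 CPM, where M1 replicate 2 stands apart. COL7A1 lost its call against M1 medium without any library but M1 replicate 3 (up to 0.181), NME4 without M1 replicates 1 and 2 and DMSO replicates 2 and 3 (up to 0.135), and YJEFN3 without M1 replicate 2 or any DMSO replicate (up to 0.153). SLC25A27, LCA5, SNRPG and OSBPL3 were the remaining 4, none of them called with the GC trend removed (edgeR adjusted p 0.0822 to 0.134).

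**Figure D5:**
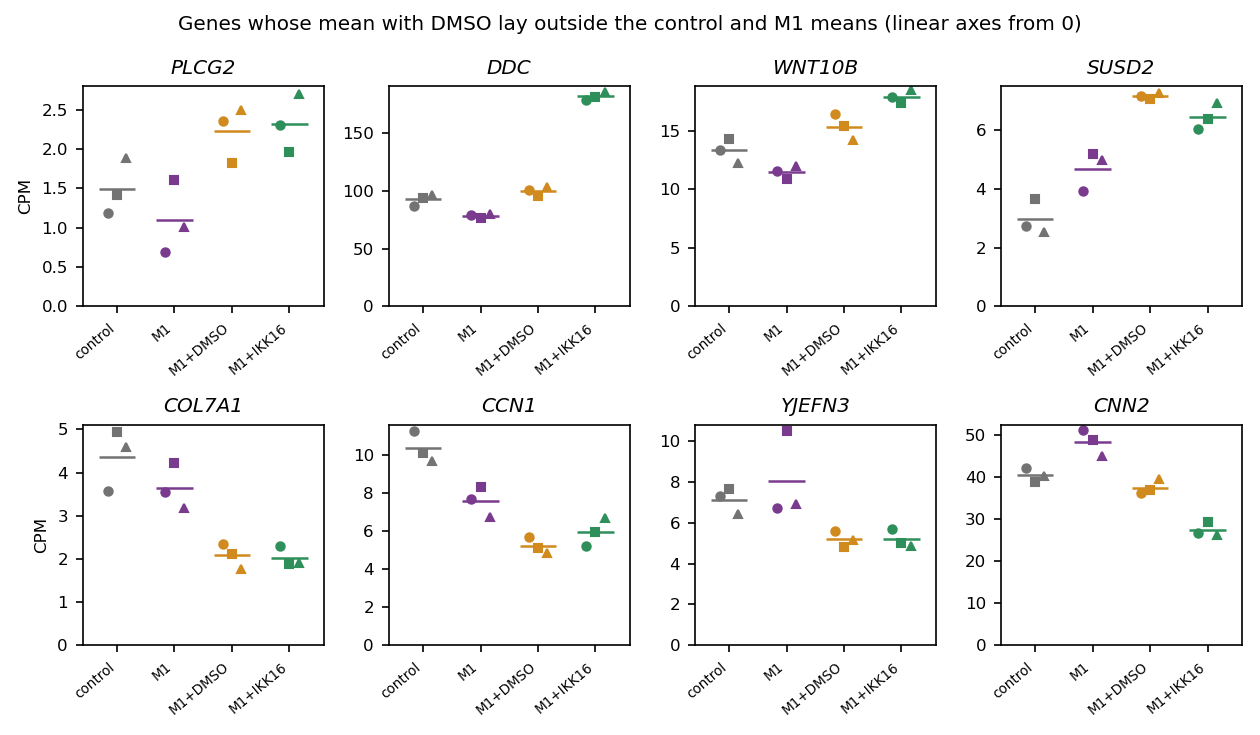
CPM (linear y axes from 0) in the libraries of control, M1, M1 with DMSO and M1 with IKK16 for 8 genes whose mean with DMSO lay outside the control and M1 means (circle, square and triangle for replicates 1, 2 and 3, bars for means). PLCG2, DDC, WNT10B and SUSD2 are higher with DMSO than in both other groups on average, and COL7A1, CCN1, YJEFN3 and CNN2 lower.

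Several further genes among those that changed most belong to the M1 response. EDN1, the vasoconstrictor endothelin-1, stood at 1.49, 2.15 and 2.03 CPM in M1 medium and 1.09, 0.808 and 0.884 with DMSO, against at most 0.0706 in control (-1.03 ± 0.288, edgeR adjusted p = 0.0446), and its call was lost in turn without each of the 6 libraries. GSDMB, a pore-forming gasdermin, went from 5.70 to 6.82 CPM to 3.53 to 3.84 CPM (-0.80 ± 0.153, edgeR adjusted p = 0.00595), and was not called without M1 replicate 2 (0.0556). APLN, the secreted peptide apelin that M1 medium lowers from 27.4 to 30.2 CPM, stood at 0.886, 1.09 and 1.31 in M1 medium and 1.43, 2.27 and 2.04 with DMSO (0.83 ± 0.208, edgeR adjusted p = 0.0262). That call was lost without M1 replicates 1 or 2 or DMSO replicates 2 or 3, with an adjusted p of up to 0.141. HES6, a neural-lineage repressor, was higher (0.56 ± 0.131, edgeR adjusted p = 0.0198) at 15.3 to 20.1 CPM in M1 medium and 25.2 to 26.7 with DMSO, a call lost without any library but M1 replicate 3, with an adjusted p of up to 0.143. The remaining genes of largest change, TMEM179, STXBP6, RCN3, KIF7 and CFD among those higher and LY96, CCDC82 and LRRC36 among those lower, all had a mean between control and M1 medium. CFD, complement factor D, kept its call when any library was left out (edgeR adjusted p at most 0.0375) and lost it with the GC trend removed (0.0839). RCN3 and STXBP6 kept theirs with the GC trend removed, but RCN3 lost it without M1 replicates 1 or 2 or DMSO replicates 1 or 2 (up to 0.11) and STXBP6 without any one of the 6 libraries (up to 0.225). The other 5 were not called with the GC trend removed, and each lost its call without M1 replicate 2 and without 2 to 4 further single libraries (up to 0.217).

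Of the genes named in the series title, CD44, the hyaluronan receptor, stood at 4.62, 4.84 and 4.05 CPM in M1 medium and at 2.65, 3.02 and 3.08 with DMSO, against 0.33 to 0.679 in control. The groups did not overlap, but the log2 fold change of -0.62 ± 0.192 did not pass over all genes (edgeR adjusted p = 0.0648, and 0.127 with the GC trend removed). SOX2 had 5 counts in the M1 libraries together and 5 in the DMSO libraries, too few to test, and NANOG 0 in both, which allows at most 0.0887 to 0.124 CPM in a library by a limit of 3 counts. MYC, which stands in the list of stemness-associated genes, was higher with DMSO (170, 164 and 179 against 206, 203 and 191 CPM, edgeR adjusted p = 0.0168), on the side of the 262 to 295 CPM of control, and lost its call without M1 replicates 1 or 2 or DMSO replicates 1 or 2 (up to 0.122). It was the single member called of 19 in that list.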

How the data were processed

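RNA-seq of 18 LNCaP libraries (6 groups of 3) entered one model. The authors deposited one table of expected counts per RefSeq transcript (70507 transcripts, values in steps of 0.5), and per the submitters' processing notes hg38, Trimmomatic, BWA 0.7.17 and HOMER 4.10 were used, with strand use and the handling of reads that match several places not given in the sources used here. Each gene was represented by its transcript with the highest total count, named from RefSeq (GRCh38.p14, 69830 transcripts) or GENCODE 29 (327). A further 350 transcripts without a name were left out, and values were rounded to whole counts. Gene counts per library were 24201864 to 33813552.5, and a limit of 3 counts corresponds to 0.0887 to 0.124 CPM. Of 28087 genes, 17034 passed edgeR's filterByExpr. The test was edgeR 4.0.16's quasi-likelihood test (R 4.3.3, TMM, all 18 libraries, common coefficient of variation 0.0627), with Benjamini-Hochberg adjusted p under 0.05. SE is the log2 fold change divided by the root of F. Alternatives were DESeq2 1.42.0, its size factors in edgeR, no filter, 1 CPM in 3 libraries, the 2 groups alone, a block for the replicate number, each gene's longest transcript, a length trend removed and each library left out. Removing the GC trend (loess, span 0.5, of each library's deviations on GENCODE transcript GC, entered as an offset) was chosen after seeing the data, alone, with the block and with each library left out. Genes were named by rule: among protein-coding genes called, with a mean of at least 1 CPM and no overlap between the 3 and 3 libraries, the 12 largest changes in each direction and the 8 largest in each direction outside the control and M1 means, then up to 3 called members per direction of each list (the 2 most abundant where none was called), and the genes of the title. Other genes were named after their values were seen. The members and lists were chosen with earlier results of these data known. A few genes that the rule names are not reported here.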

Additional observations from a re-analysis of the deposited data

How the results depend on the processing

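The number of genes higher with DMSO (378) was 175 with the GC trend removed, 158 with the GC trend removed and the replicate block, 759 with DESeq2, 592 with no filter, 877 with the 2 groups alone and 636 with a length trend removed. The number lower (346) was 186, 179 and 693 with the GC trend removed, with that and the block, and with the 2 groups alone. Genes lower with DMSO among those higher with the inhibitor than in control (103) were 176 with the 2 groups alone, and G2/M genes higher (9) were 15 with the GC trend removed. With each library left out in turn, genes higher ranged from 27 to 862 and genes lower from 44 to 625, genes lower and higher within the inhibitor classes from 26 to 112 and from 9 to 51, NF-kB effectors from 3 to 6, interferon gamma genes from 3 to 11, acute-phase genes from 2 to 6, androgen targets from 1 to 7, S phase genes from 3 to 13 and G2/M genes from 2 to 6. With the GC trend removed as well, and M1 replicates 1, 2 and 3 and then DMSO replicates 1, 2 and 3 left out in turn, genes higher were 83, 44, 232, 55, 62 and 118 and genes lower 95, 47, 199, 68, 54 and 111. In the same order, genes lower within the inhibitor class were 48, 28, 75, 36, 31 and 59, genes higher within the other class 19, 12, 36, 18, 19 and 26, NF-kB effectors 7, 3, 7, 4, 3 and 7, interferon gamma genes 4, 4, 7, 4, 4 and 6, acute-phase genes 3, 3, 4, 3, 3 and 4, androgen targets 5, 3, 5, 4, 4 and 4, S phase genes 12, 3, 12, 5, 4 and 11, and G2/M genes 8, 6, 12, 6, 6 and 12. Fewer samples enter each of these fits, and the cause of the other differences was not tested. None of the 106 genes named by rule reversed under any setting run. Of the 97 called among them, 38 lost their call with the GC trend removed, 72 without M1 replicate 2 and 8 without M1 replicate 3.

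Replicate numbers do not pair these libraries: same-numbered M1 and DMSO libraries deviated from their group means with correlations of -0.027, -0.008 and -0.012. With the replicate number as a block, 300 genes were higher and 287 lower, and 11 of the 97 named genes lost their call.

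PLCG2, NME4, COL7A1 and EDN1 rest on few counts, and each lost its call without at least 3 of the 6 libraries.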
